A study of Mus musculus with 9 samples.

Results

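The genes described here are Nras and Hras, which encode small Ras GTPases, and 7 genes that the ERK branch of the MAP kinase pathway is known to switch on: Spry1, Spry2, Spry4, Spred1, Dusp4, Dusp6 and Etv4. The 7 are called feedback genes here, although Etv4 encodes a transcription factor that acts downstream of ERK. Together with the Ras genes they form a list of 9 genes, which were matched by symbol to the array's annotation. One feature each was found for 8 of them, among 19505 genes measured, and Hras was not analysed here. Their RNA was compared in a mouse lung carcinoma line grown in a dish, under the skin and in the lung.

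Ras GTPases pass the signal of growth factor receptors to the RAF, MEK and ERK kinases, and ERK then phosphorylates transcription factors such as those of the ETS family. The transcripts induced include brakes on the same pathway: Sprouty and Spred proteins act upstream, between receptor and RAF, and dual-specificity phosphatases remove the activating phosphates from ERK itself. Levels of these transcripts are widely used as a readout of ERK pathway output in tumours, although each gene also answers to other signals.

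All 9 samples were GFP-carrying cells of the mouse Lewis lung carcinoma (LLC) line 3LL, with C57/BL6 given as the strain. The 3 dish samples were cultured as a monolayer for 7 days. The 3 subcutaneous samples were GFP+ cells isolated 7 days after transplantation under the skin, and the 3 lung samples were GFP+ cells isolated 7 days after intrapulmonary transplantation. The series text attaches the letters BLM to the lungs without spelling them out. The sources used here do not say how the GFP+ cells were isolated or whether replicates were separate animals or cultures. The p-values therefore cover the spread of these 9 samples only, and that spread may be technical. The dish cells were cultured and the others were recovered from mice, so growth site and recovery cannot be told apart in the comparisons with the dish. Between lung and subcutaneous arrays, growth site, whatever BLM stands for and any difference in recovery between the tissues cannot be told apart either.

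Values are the deposited log2 signals of a 1-colour array, so a difference of 1 is a doubling, and each level is specific to its probe set. A gene was called where limma's Benjamini-Hochberg adjusted p over all 19505 genes was under 0.05. The 90th percentile of the negative-control features, 7.20 to 7.73 over the arrays, served as a guide to background. The upper quartile over genes was 8.55 to 8.68 on the lung arrays against 8.20 to 8.49 on the others. Making it equal shifted the median difference over all genes from -0.07 to -0.38 between lung and subcutaneous arrays, and from -0.07 to -0.41 between lung and dish, which is why results that moved with scaling are named. In all, 1797 genes were higher and 1130 lower on the lung than on the subcutaneous arrays (1405 and 1248 after quantile normalization, 1124 and 2936 with equal upper quartiles). Between lung and dish the calls were 938 higher and 384 lower (662 and 553, then 565 and 1787). Subcutaneous against dish gave 1251 higher and 1262 lower. Leaving out lung replicate 1 reduced the 2927 calls of the first comparison to 1476, and leaving out lung replicate 2 to 1938. The 1322 calls between lung and dish became 514, 667, 591 and 765 without dish replicate 2, dish replicate 3, lung replicate 1 and lung replicate 2. Without dish replicate 2, the 2513 calls between subcutaneous and dish arrays became 1639.

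Upstream sequence was read for the members from a RefSeq promoter table of mouse build GRCm38.p6. Entries were read for 6 of the 9 genes, among them 4 of the feedback genes. Member entries on the chromosome of Spry4 were left out of the search. The 250 bases before each RefSeq start were searched on both strands for the octamers bound by Capicua, a repressor that ERK signalling is known to inactivate (TGAATGAA, TGAATGGA, TCAATGAA and TCAATGGA), and for the ETS site CCGGAAGT. A Capicua octamer was found in 2 of the 4 feedback genes, Dusp6 and Spry2, and in 3.19% of the 32851 promoters of the table. The ETS octamer was found in 0 of the 6 entries and in 2.88% of all promoters. No chromosome was left out of the shares over all promoters, unlike the search of the members. The members' counts were not tested against these shares. The sequences of both matching genes are shown because Dusp6 had the largest difference among the members and Spry2, with the same kind of octamer, passed no test. Capitals mark the octamer as read on the gene's strand, which is the reverse complement of a listed form; it lies 24 to 17 bases before the start in Dusp6 (chr10:99262981-99263230, plus strand) and 54 to 47 bases before it in Spry2 (chr14:105896820-105897069, minus strand).
Dusp6: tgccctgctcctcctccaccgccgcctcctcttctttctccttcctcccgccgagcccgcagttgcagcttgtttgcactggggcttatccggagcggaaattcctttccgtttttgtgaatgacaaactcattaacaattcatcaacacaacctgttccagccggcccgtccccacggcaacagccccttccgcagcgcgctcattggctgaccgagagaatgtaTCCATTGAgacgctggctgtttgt
Spry2: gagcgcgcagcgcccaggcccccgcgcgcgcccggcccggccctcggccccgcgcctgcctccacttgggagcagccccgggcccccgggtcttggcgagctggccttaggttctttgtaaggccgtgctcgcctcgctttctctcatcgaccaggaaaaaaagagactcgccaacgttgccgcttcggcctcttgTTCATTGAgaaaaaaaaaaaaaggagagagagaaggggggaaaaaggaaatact
The match is a description of letters and does not show that the sequence is bound in these cells.

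The members did not move as 1 block. Dusp6 and Spry4 were highest on the subcutaneous arrays, Dusp4 was highest in the dish, Etv4 was lowest in the dish, Nras was lowest on the subcutaneous arrays, and Spry2 and Spred1 passed no test. Values of the 3 arrays of a group are given in the order of the replicate numbers, which have no meaning as an order.

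**Figure D1:**
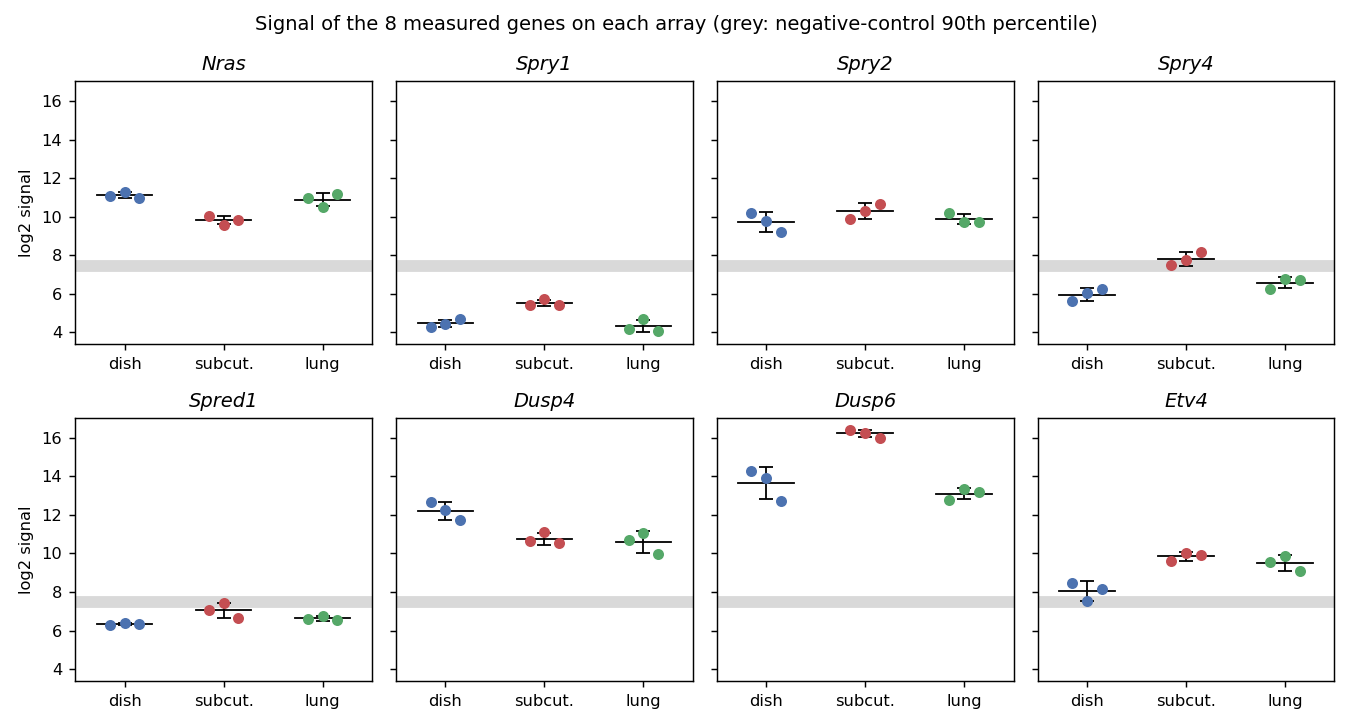
Log2 signal (y axis) of the 8 measured genes on each array (points), with 1 panel per gene and the dish, subcutaneous and lung groups along the x axis; horizontal bars are group means, vertical bars 1 SD, and the grey band is the range of the negative-control 90th percentile. The 3 subcutaneous points of Dusp6 lie between 16.01 and 16.39, above all 6 others, while the Spry1 points all lie under the band.

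Nras, the 1 Ras gene measured, read 11.10, 11.28 and 10.97 in the dish, 10.03, 9.59 and 9.84 on the subcutaneous arrays and 10.96, 10.53 and 11.17 on the lung arrays. The subcutaneous arrays were below all 6 others, and dish and lung overlapped. Nras fell by 1.29 between dish and subcutaneous arrays (SE 0.25, n = 3 per group, limma adjusted p = 0.00365), a 2.45-fold difference. It rose by 1.07 from the subcutaneous to the lung arrays (SE 0.25, limma adjusted p = 0.0121), or 2.09-fold. Lung and dish differed by -0.23 with a 95% interval from -0.76 to 0.31 (limma adjusted p = 0.641). The rise in the lung was not called after quantile normalization (0.84, limma adjusted p = 0.0504), with equal upper quartiles (0.76, 0.0661) or without lung replicate 1 (1.03, 0.0543), and the fall from the dish was not called with RIN, the RNA integrity number, as a covariate (-1.01, 0.0574).

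Of the Sprouty genes, Spry4 was the 1 with a called difference in signals above background. Sprouty proteins bind adaptors and RAF and limit the signal that receptors send to ERK. Spry4 read 5.62, 6.02 and 6.26 in the dish, 7.50, 7.76 and 8.19 on the subcutaneous arrays and 6.27, 6.80 and 6.70 on the lung arrays. The 3 groups did not overlap, although the highest dish array and the lowest lung array were almost level. Only the subcutaneous arrays were above the background guide. Spry4 rose by 1.85 from dish to subcutaneous arrays (SE 0.27, limma adjusted p = 0.000653, n = 3), and set against background in the dish the difference was at least 0.39. From the subcutaneous to the lung arrays it fell by 1.23 (SE 0.27, limma adjusted p = 0.00918), with a bound of at least 0.55. Without subcutaneous replicate 3 these bounds were 0.21 and 0.36. The lower lung signal was not called without lung replicate 1 (-1.07, limma adjusted p = 0.0548) or with very long mRNAs (their mean level on the array) as a covariate (-1.11, 0.152). Lung and dish differed by 0.62 (95% interval 0.03 to 1.21), which did not pass the test (limma adjusted p = 0.204).

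Spry1 was under background on all 9 arrays, so its differences are between signals that cannot be told from background. It read 4.27, 4.46 and 4.67 in the dish, 5.44, 5.71 and 5.43 on the subcutaneous arrays and 4.19, 4.69 and 4.10 on the lung arrays. The subcutaneous arrays lay above the rest (1.06 against dish, limma adjusted p = 0.0117; -1.20 for lung against subcutaneous, 0.00585), and the first of these was not called with RIN as a covariate (0.86, 0.117). No fold is given.

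Spry2, well above background in every group, read 10.21, 9.77 and 9.21 in the dish, 9.88, 10.31 and 10.69 on the subcutaneous arrays and 10.18, 9.70 and 9.75 on the lung arrays. Each pair of groups overlapped. The differences were 0.56 for subcutaneous against dish (95% interval -0.09 to 1.22, limma adjusted p = 0.276), 0.15 for lung against dish (-0.51 to 0.80, 0.833) and -0.42 for lung against subcutaneous (-1.07 to 0.24, 0.398). The interval for subcutaneous against dish leaves room for a difference of 1.07, the smaller of those called for Nras. The interval for lung against subcutaneous does so only at its edge, and that for lung against dish does not.

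Spred1 encodes a membrane protein that brings the Ras-inactivating protein neurofibromin to Ras. Its signals were 6.27, 6.40 and 6.35 in the dish, 7.05, 7.45 and 6.65 on the subcutaneous arrays and 6.58, 6.77 and 6.53 on the lung arrays, and 1 subcutaneous array was above the background guide. The dish arrays were below all others. The difference of 0.71 between subcutaneous and dish arrays did not pass the test (limma adjusted p = 0.0813), but did after quantile normalization (0.77, 0.0451) and without subcutaneous replicate 3 (0.91, 0.0373). Lung differed from dish by 0.29 (limma adjusted p = 0.545) and from subcutaneous by -0.42 (0.283).

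Dusp6 had the largest differences of the 8 genes. It encodes a cytoplasmic phosphatase selective for ERK. It read 14.30, 13.92 and 12.71 in the dish, 16.39, 16.27 and 16.01 on the subcutaneous arrays and 12.78, 13.33 and 13.18 on the lung arrays. The subcutaneous arrays lay far above the others and close together (SD 0.19), whereas the dish arrays spread widely (SD 0.83) and dish replicate 3 lay below every lung array. Dusp6 rose by 2.58 from dish to subcutaneous arrays (SE 0.35, limma adjusted p = 0.000404, n = 3), a 5.99-fold difference. It fell by 3.13 from the subcutaneous to the lung arrays (SE 0.35, limma adjusted p = 0.000236), an 8.75-fold difference. Lung and dish differed by -0.55 with an interval from -1.31 to 0.22 (limma adjusted p = 0.402). Both called differences held in all 20 alternatives, from 2.12 to 2.91 and from -3.44 to -2.97.

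Dusp4, which encodes a nuclear phosphatase of ERK and other MAP kinases, followed another order. Its signals were 12.66, 12.25 and 11.72 in the dish, 10.65, 11.09 and 10.52 on the subcutaneous arrays and 10.72, 11.07 and 9.98 on the lung arrays. All dish arrays were above all others, and the subcutaneous and lung groups overlapped. Dusp4 fell by 1.45 from dish to subcutaneous arrays (SE 0.33, limma adjusted p = 0.00967, n = 3), or 2.74-fold. It fell by 1.62 from dish to lung (SE 0.33, limma adjusted p = 0.0105), or 3.07-fold, and this call was lost without dish replicate 2 (-1.60, 0.0506). Lung and subcutaneous arrays differed by -0.16 (95% interval -0.87 to 0.54, limma adjusted p = 0.786). On the same arrays Dusp6 and Dusp4 thus moved in opposite directions from dish to subcutaneous tumour.

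Etv4 encodes an ETS transcription factor that acts downstream of ERK. It read 8.49, 7.51 and 8.16 in the dish, 9.60, 10.00 and 9.94 on the subcutaneous arrays and 9.56, 9.88 and 9.07 on the lung arrays. The dish arrays were below all 6 others. Etv4 rose by 1.79 from dish to subcutaneous arrays (SE 0.30, limma adjusted p = 0.00149, n = 3), or 3.47-fold, and by 1.45 from dish to lung (SE 0.30, limma adjusted p = 0.0125), or 2.73-fold. The lung call was lost without dish replicate 2 (1.18, 0.0674), lung replicate 1 (1.42, 0.0536) or lung replicate 2 (1.26, 0.0547), and with very long mRNAs as a covariate (0.64, 0.624). Lung and subcutaneous arrays differed by -0.34 (95% interval -0.99 to 0.30, limma adjusted p = 0.490).

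**Figure D2:**
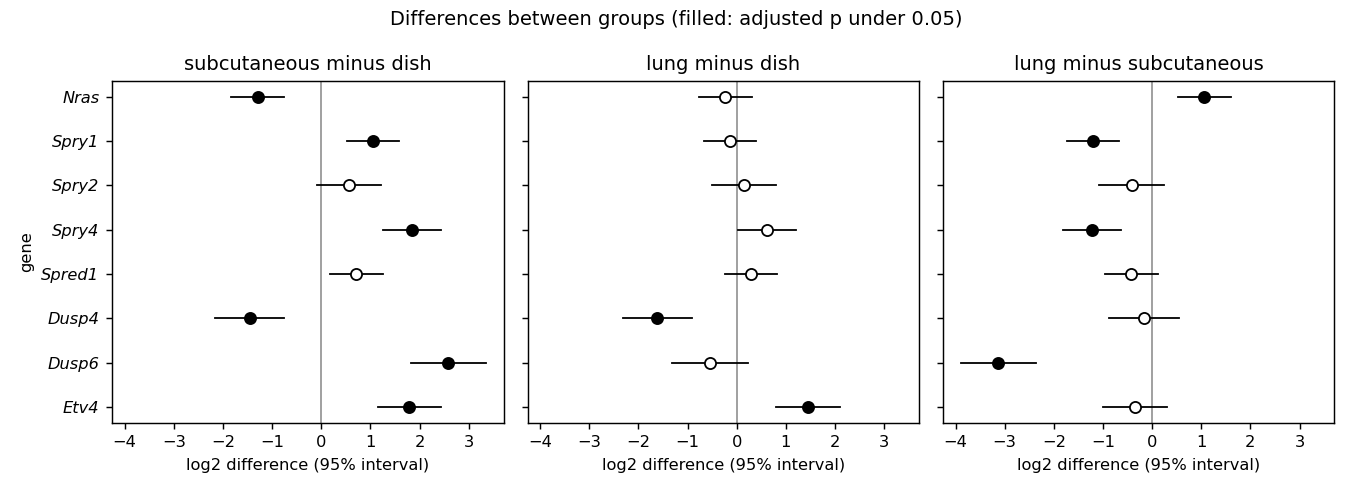
Log2 differences (x axis) with 95% intervals from limma for the 8 genes (y axis), in 1 panel for each comparison; filled points had an adjusted p under 0.05. Dusp6 stands at 2.58 for subcutaneous against dish and at -3.13 for lung against subcutaneous, while the intervals of Spry2 cross 0 in all 3 panels.

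In counts, the comparison of subcutaneous with dish arrays gave 4 members that rose (Spry1, Spry4, Dusp6 and Etv4) and 2 that fell (Nras and Dusp4), against 12.9% of all genes called (6.41% higher, 6.47% lower). The median difference over the 8 was 0.88, and -0.01 over all genes. Lung against subcutaneous gave 1 that rose (Nras) and 3 that fell (Spry1, Spry4 and Dusp6), with a median of -0.42 and 15.0% of all genes called (9.21% higher, 5.79% lower); without lung replicate 1 the count was 2. Lung against dish gave 1 that rose (Etv4) and 1 that fell (Dusp4), with a median of 0.00 and 6.78% of all genes called (4.81% higher, 1.97% lower); without dish replicate 2 the count was 0, with 1 left without lung replicate 1 or lung replicate 2. Groups did not overlap for 7 members in the first comparison, 4 in the next and 4 in the last, and for 29.3%, 32.5% and 28.4% of all genes. Among genes above background on all 3 arrays of a compared group the called shares were 31.7%, 32.8% and 15.6%. Of the 8 members, 6, 6 and 5 met that condition, in the same order. Every called member but Spry1, which counts in the first 2 comparisons, was among them. The first and the last comparison share the dish arrays, and each group enters 2 comparisons, so the counts are not independent.

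Across the 9 arrays, which fall into 3 groups, the correlations describe mostly group differences. Over all 28 pairs of members, 16 had a positive Pearson's r. Among Spry1, Spry4, Spred1, Dusp6 and Etv4 the 10 pairs had r of 0.458 to 0.871. Nras ran from -0.949 to -0.767 against those 5 genes, and Dusp4 from -0.691 to -0.145 against the other 6 feedback genes. Spry2 had lower r with those 5 genes, 0.314 to 0.612, and -0.534 with Nras. Nras and Dusp4 had r of 0.389. The highest and the lowest r both involve Spry1, which was under background. Among 6305 genes above background on all 3 arrays of at least 1 group, the profiles most like that of Dusp6 were Nceh1 (r = 0.992) and Pam (0.989). The profiles most like those of the other members were Psmd13 and Trip13 for Nras (0.987 and 0.981), Mta2 and Lap3 for Dusp4 (0.981 and 0.972), Secisbp2l and Dag1 for Etv4 (0.981 and 0.980), and Utp14a and Sil1 for Spry4 (0.970 and 0.967). Those of Spry1 were Skap2 and Mpzl1 (both 0.980), those of Spred1 Arpin and Anp32b (0.933 and 0.930), and those of Spry2 Slc30a9 and Rnf34 (0.903 and 0.893). The mean of the 7 feedback genes was most like Pnrc1 (0.996), Mxra8 (0.985), Adssl1 (0.985), Wdr35 (0.980) and Ik (0.979).

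The labels call every sample LLC cells. Whether the 6 genes listed for the tumour line are particular to it was not tested. Of these 6, 5 (Krt8, Vim, Cd44, Pcna and Mki67) were above background on all arrays. Krt18, a keratin of simple epithelia, was not: it was under background in the dish (mean 5.72) and averaged 11.03 on the subcutaneous and 8.04 on the lung arrays. Of these 6 genes 4 rose from dish to subcutaneous arrays, Krt18 by at least 3.60, Krt8 by 1.63, Vim by 1.61 (not called with RIN as a covariate, 1.28, limma adjusted p = 0.0532) and Cd44 by 1.49. From subcutaneous to lung arrays Krt18 and Vim fell and Mki67 rose. The list mean was 10.59 to 11.09 in the dish, 12.33 to 12.53 on the subcutaneous arrays and 11.70 to 12.31 on the lung arrays. The means of the tumour line and fibroblast lists were, like Dusp6 and Spry4, highest on the subcutaneous arrays. On the lung arrays both means stayed above every dish array, as Spry4 did narrowly. Dusp6 overlapped with the dish there, as did the fibroblast gene Dpt, which was under background in both groups. The mean level of the 9 measured fibroblast genes was 5.16 to 5.25 in the dish, 7.55 to 7.77 on the subcutaneous arrays and 5.62 to 6.15 on the lung arrays, and 3 of the 9 rose from dish to subcutaneous arrays. Lum, a matrix proteoglycan, averaged 5.80, 13.20 and 7.08 in the 3 groups in that order, and Dcn, another, 7.05, 16.65 and 12.21, while the collagen genes Col1a1, Col1a2 and Col3a1 were under background on all 9 arrays. The part of either list in the members' differences was not tested. Alveolar type II markers averaged 6.50 to 8.11 on the lung arrays against at most 4.91 elsewhere, and airway markers reached 9.30 on lung replicate 3, which stood apart from the other lung arrays. Without that replicate, 6, 4 and 2 members were called in the 3 comparisons, as with it. Endothelial markers (8 genes) were under background on all arrays, with 0 called by limma in any comparison and 1 higher under the skin than in the dish at an unadjusted p under 0.05. Of 12 monocyte and macrophage markers measured, Cd14 was above background on all 9 arrays and not called. Lyz2 read 9.68, 6.32 and 10.04 in the lung and was under background on lung replicate 2 and on all dish and subcutaneous arrays. Its lung and subcutaneous groups overlapped. Lyz2 was called against the subcutaneous arrays (limma adjusted p = 0.0450) and against the dish (0.0274), and both calls were lost without any 1 of the dish arrays or without lung replicate 1 or 3, and with only the groups compared. The former was also lost without any 1 of the subcutaneous arrays, under both scaling alternatives and with RIN as a covariate. Mrc1 was above background on 1 lung array and the other 9 on none, Ptprc, Adgre1 and Csf1r among them. The list mean was 4.98 to 5.29 in the dish, 5.09 to 5.28 on the subcutaneous arrays and 5.08 to 5.79 on the lung arrays. The mean of 22 very long mRNAs was 7.03 to 7.40 in the dish, 7.28 to 7.74 on the subcutaneous arrays, and 8.99, 9.30 and 7.64 on lung replicates 1 to 3, and RIN ran from 7.5 to 8.6. In bulk samples of this kind, fewer cells of a type and less RNA per cell cannot be told apart.

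**Figure D3:**
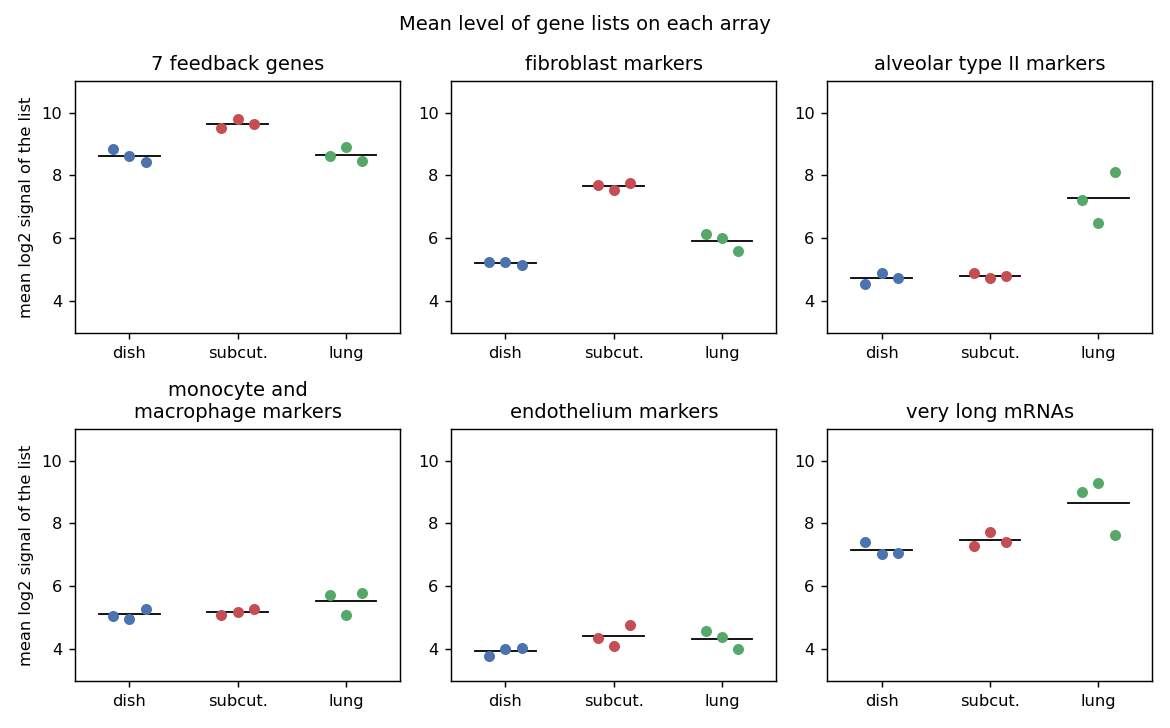
Mean log2 signal (y axis) of the 7 feedback genes, of 4 lists of marker genes and of very long mRNAs on each array (points), by group (x axis); bars are group means. The feedback mean is 9.50 to 9.80 on the subcutaneous arrays against 8.44 to 8.89 on the others, the fibroblast mean is also highest there, and lung replicates 1 and 2 lie highest for the very long mRNAs.

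The rest of the pathway was read from 8 lists with 119 measured genes, of which 41 were called in at least 1 comparison. The share of all genes called in at least 1 comparison was not counted. Of all genes, 12.9% were called between subcutaneous and dish, 15.0% between lung and subcutaneous and 6.78% between lung and dish. The list counts below are therefore not read as an excess of calls. Upstream, receptor tyrosine kinases carry the growth factor signal into the cell. Of 16 measured, 3 rose (Erbb2, Fgfr1 and Met) and 1 fell (Pdgfrb) from dish to subcutaneous arrays, 3 rose (Met, Kit and Igf1r) from dish to lung, and 1 fell (Fgfr1) from the subcutaneous to the lung arrays. Erbb2, Kit and Igf1r were under background in the dish and above it on only 1 array of the group where they were higher, and Pdgfrb was above it on 2 dish arrays and 1 subcutaneous array. Fgfr1, a receptor for fibroblast growth factors, read 11.48, 10.93 and 9.77 in the dish, 12.76, 13.22 and 12.46 on the subcutaneous arrays and 10.55, 11.30 and 10.27 on the lung arrays. Like Dusp6, it was highest on the subcutaneous arrays and overlapped between dish and lung. It fell by 2.11 from subcutaneous to lung (SE 0.41, limma adjusted p = 0.00425) and rose by 2.09 from the dish (limma adjusted p = 0.00409), the latter not called with RIN as a covariate (1.89, 0.0515). Met, the hepatocyte growth factor receptor, was higher at both sites than in the dish, by 1.59 under the skin (limma adjusted p = 0.00133) and by 1.78 in the lung (0.00192; 1.76 and 0.0969 with very long mRNAs as a covariate). Egfr, Erbb3, Fgfr2, Fgfr3 and Fgfr4 were under background on all arrays.

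Of 20 growth factor genes measured, Pdgfc, a ligand of platelet-derived growth factor receptors, was the 1 called between lung and subcutaneous arrays. It averaged 10.11 in the dish, 7.54 on the subcutaneous arrays and 10.52 in the lung, and rose by 2.98 from subcutaneous to lung (limma adjusted p = 0.000271). Subcutaneous against dish gave 3 that rose (Ereg, Hbegf and Pdgfa) and 1 that fell (Pdgfc); lung against dish gave 2 that rose (Ereg and Pdgfa) and 1 that fell (Btc, under background). Ereg, an epidermal growth factor family ligand, was under background in the dish, and its rise of 1.75 under the skin (limma adjusted p = 0.00534) was at least 1.17 above background; with RIN as a covariate it was not called (1.25, 0.0841). Its rise of 1.58 in the lung (at least 1.00) was lost without dish replicate 2, lung replicate 1 or lung replicate 2, with RIN as a covariate (1.27, 0.063) and with very long mRNAs as a covariate (0.82, 0.624). Pdgfa, a ligand of the same receptor family as Pdgfc, was under background in the dish and rose by at least 1.07 under the skin (limma adjusted p = 0.0122; not called with RIN as a covariate, 0.113) and by at least 1.88 in the lung (0.00267; not called with very long mRNAs as a covariate, 0.34).

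A list of adaptors, kinases and other signalling genes of the pathway, not all of them between receptor and ERK, held 14 measured genes. Of these, 5 rose from subcutaneous to lung arrays (Grb2, Gab1, Ptpn11, Ppp1ca and Ksr1) and 0 fell, with 1 lower at an unadjusted p under 0.05 by limma. From dish to subcutaneous arrays 4 of these 5, all but Grb2, fell and 0 rose, with 1 higher at an unadjusted p under 0.05. Lung against dish gave 0 limma calls in this list, with 1 gene at an unadjusted p under 0.05. Gab1, a docking protein for receptor signals, averaged 9.51, 8.74 and 9.88 in dish, subcutaneous and lung and rose by 1.14 from subcutaneous to lung (SE 0.22, limma adjusted p = 0.00416; 0.95 and 0.115 with very long mRNAs as a covariate). The differences of Grb2 (1.09), Ptpn11 (0.93) and Ksr1 (1.20) were each lost under both scaling alternatives, with only the groups compared, without lung replicate 1 and with very long mRNAs as a covariate (Grb2 1.28, limma adjusted p = 0.138; Ptpn11 0.60, 0.474; Ksr1 0.53, 0.573). Grb2 was also lost without subcutaneous replicate 1 or lung replicate 3, Ksr1 without subcutaneous replicates 1 or 3 or lung replicate 2, and Ptpn11 without dish replicate 2, subcutaneous replicates 2 or 3 or lung replicate 2 and with RIN as a covariate. The falls of Gab1 (-0.77) and Ksr1 (-1.13) from dish to subcutaneous arrays were lost in 10 and 6 of 20 alternatives, among them each of the 3 dish arrays left out, and that of Ptpn11 (-1.38) with RIN as a covariate. Of 16 exchange factors and GTPase-activating proteins, which load and unload Ras, 1 fell from subcutaneous to lung (Rasa3, -0.90, limma adjusted p = 0.0465). It was lost in 10 of 20 alternatives, among them dish replicate 2, subcutaneous replicates 2 and 3 and each lung array left out, only the groups compared, the replicate block and both covariates. Rasgrp3, under background, fell and Nf1, the neurofibromin gene, rose in both comparisons with the dish.

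Of 12 other Ras-family GTPases, Rap2a and Rit1 fell from subcutaneous to lung arrays and 0 rose, with 1 higher at an unadjusted p under 0.05 by limma. The fall of Rit1 (-0.74, limma adjusted p = 0.0398) was lost in 10 of 20 alternatives, among them dish replicate 2, each subcutaneous array and lung replicates 1 and 2 left out, only the groups compared, the replicate block and both covariates. From dish to subcutaneous arrays 2 rose (Rras and Rap2a) and 1 fell (Rras2). Rap2a averaged 9.20, 11.13 and 9.89 in dish, subcutaneous and lung. It rose by 1.93 from dish to subcutaneous (limma adjusted p = 0.000583) and fell by 1.24 from there to lung (0.0101), and the latter was not called without lung replicate 1 (-1.01, 0.0592) or with very long mRNAs as a covariate (-0.97, 0.217). Rras and Rras2, which encode GTPases close to the classical Ras proteins, went opposite ways. Rras rose by 1.42 from dish to subcutaneous arrays (limma adjusted p = 0.0151), a call lost without dish replicate 3 (1.04, 0.064) or subcutaneous replicate 1 (1.33, 0.0508) and with RIN as a covariate (1.52, 0.0639). Rras2 fell by 1.35 (limma adjusted p = 0.00384; -1.06 and 0.0598 with RIN as a covariate). The last comparison of this list, lung against dish, gave 1 that fell (Rras2, -1.06) and 0 that rose, with 5 higher at an unadjusted p under 0.05. That fall was lost without any 1 of the dish arrays, lung replicate 1 or lung replicate 2, with RIN as a covariate (-0.88, 0.0891) and with very long mRNAs as a covariate (-0.64, 0.611).

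Of 11 other dual-specificity phosphatase genes, 3 rose (Dusp7, Dusp9 and Dusp16) and 1 fell (Dusp10) from subcutaneous to lung arrays. From dish to subcutaneous arrays 4 rose (Dusp1, Dusp7, Dusp10 and Dusp22) and 1 fell (Dusp16, -1.56, limma adjusted p = 0.011; not called with RIN as a covariate, 0.0842), and from dish to lung 2 rose (Dusp1 and Dusp7) and 0 fell, with 0 lower at an unadjusted p under 0.05. Dusp22, above background on 1 subcutaneous array only, differed by 1.17 (limma adjusted p = 0.0207), a call lost without any 1 of the dish arrays or subcutaneous replicate 2 and with RIN as a covariate. Dusp7 encodes a cytoplasmic phosphatase of the same subgroup as that of Dusp6, and it followed another order. It read 10.72, 8.99 and 9.87 in the dish, 11.64, 11.78 and 11.16 on the subcutaneous arrays and 13.72, 13.26 and 13.18 on the lung arrays, so that the 3 groups did not overlap and lung was highest. It rose by 3.53 from dish to lung (SE 0.37, limma adjusted p = 0.000225), by 1.67 from dish to subcutaneous (0.00962; 1.65 and 0.0673 with RIN as a covariate) and by 1.86 from subcutaneous to lung (0.00531; 1.44 and 0.162 with very long mRNAs as a covariate). Dusp10, whose product acts mainly on the stress kinases p38 and JNK, had the order of Spry4, at 9.98, 12.13 and 10.83 in dish, subcutaneous and lung. It rose by 2.16 from the dish (limma adjusted p = 0.000134) and fell by 1.30 to the lung (0.00463), and both held in all 20 alternatives. Dusp1, an immediate-early nuclear phosphatase gene, was higher at both sites than in the dish, by 1.93 under the skin (limma adjusted p = 0.00157) and by 2.67 in the lung (0.000608; 1.63 and 0.106 with very long mRNAs as a covariate). The rises of Dusp16 (1.52) and Dusp9 (1.26) from subcutaneous to lung were lost without lung replicate 1 (Dusp16 1.43, limma adjusted p = 0.0568) and without lung replicate 2 (Dusp9 1.05, 0.0547), and both with very long mRNAs as a covariate (1.25, 0.221 and 0.93, 0.253).

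**Figure D4:**
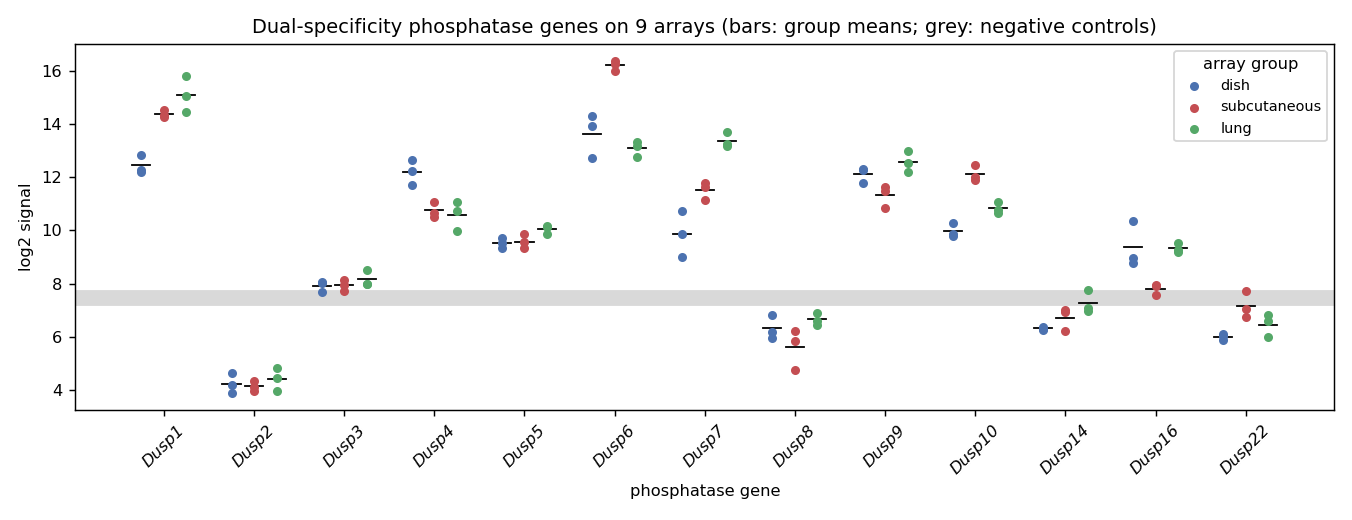
Log2 signal (y axis) of 13 dual-specificity phosphatase genes (x axis), including Dusp4 and Dusp6, on the 9 arrays (points, coloured by group); bars are group means and the grey band is the range of the negative-control 90th percentile. Dusp6 and Dusp10 are highest on the subcutaneous arrays, Dusp4 in the dish and Dusp7 on the lung arrays.

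The 3 other Sprouty and Spred genes gave 0 calls by limma in any comparison and 0 at an unadjusted p under 0.05. Of these, Spred2 was above background, at 12.00 in the dish, 12.05 on the subcutaneous arrays and 11.60 in the lung. Of 27 further ERK targets and feedback genes, 4 rose (Elk4, Srf, Plaur and Ets2) and 3 fell (Etv1, Elk1 and Ets1) from subcutaneous to lung, 6 rose (Etv1, Ier3, Errfi1, Egr1, Ets1 and Maff) and 1 fell (Srf) from dish to subcutaneous, and 5 rose (Ier3, Errfi1, Fos, Srf and Plaur) and 1 fell (Elk1) from dish to lung. Egr1, Maff and Fos were under background in the dish, and Fos was above it on 1 lung array only. Etv1, of the same ETS subfamily as Etv4, averaged 9.54 in the dish, 11.72 on the subcutaneous arrays and 8.24 in the lung. It fell by 3.47 from subcutaneous to lung (SE 0.41, limma adjusted p = 0.000285), held in all 20 alternatives, whereas Etv4 differed by -0.34 on the same arrays. Etv5, the remaining gene of that subfamily, averaged 13.45, 13.00 and 13.11 and was not called. Srf, a transcription factor of immediate-early genes, rose by 2.60 from subcutaneous to lung arrays (limma adjusted p = 0.000603), at least 1.84 above the subcutaneous background. Set against background under the skin, its fall from the dish was at least 0.52, and 0.26 without dish replicate 1. Its differences from the dish, -1.28 under the skin and 1.32 in the lung, were lost without either of 2 dish arrays in each case (replicates 1 and 3, and replicates 2 and 3), without subcutaneous replicate 2, and without subcutaneous replicate 3 or without lung replicates 1 or 2, respectively. Both were lost with RIN as a covariate (-1.23, 0.149 and 1.35, 0.0871), and the lung difference also under both scaling alternatives, with only the groups compared and with very long mRNAs as a covariate (0.25, 0.931). Ets2, under background on all arrays, lost its call without subcutaneous replicates 1 or 3 or lung replicates 1 or 2 and with very long mRNAs as a covariate. Ier3, an immediate-early gene, was under background in the dish and rose by at least 0.83 under the skin (limma adjusted p = 9.54e-05) and by at least 1.15 in the lung (0.000143). Plaur, the urokinase receptor gene, was highest in the lung. Its rise of 1.46 from the subcutaneous arrays was lost without subcutaneous replicate 2 or lung replicate 1 and with very long mRNAs as a covariate (1.13, 0.247), and it rose by 2.14 from the dish (limma adjusted p = 0.00313; 1.71 and 0.204 with very long mRNAs as a covariate). Errfi1, an inhibitor of the epidermal growth factor receptor, rose by 1.25 under the skin (limma adjusted p = 0.0104; 1.22 and 0.0707 with RIN as a covariate) and by 1.41 in the lung (0.0105), the latter not called without lung replicate 1 (1.29, 0.0567) or with very long mRNAs as a covariate (1.09, 0.361).

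**Figure D5:**
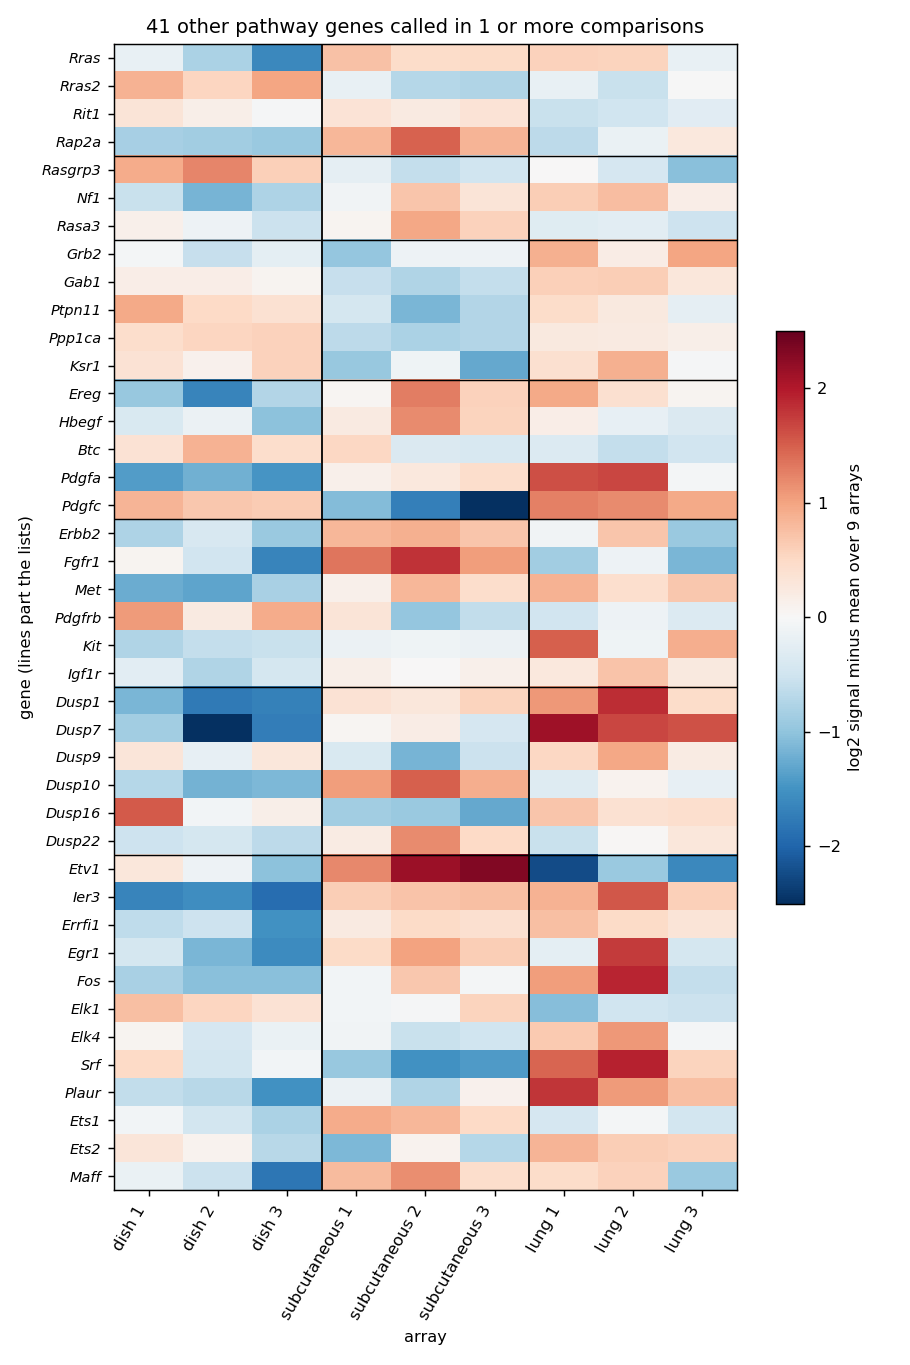
Log2 signal minus the gene's mean over the 9 arrays (colour scale) for the 41 other pathway genes called in at least 1 comparison (y axis, lines part the lists) on each array (x axis). Genes highest on the subcutaneous arrays, such as Fgfr1, Dusp10 and Etv1, stand beside genes highest in the lung, such as Dusp7, and genes lowest in the dish, such as Met and Ier3.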

How the data were processed

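The values used are log2 signals as deposited by the authors in a table of 28846 rows, 1 column for each of the 9 arrays; the scale was read from the values. How they were normalized, with which software and on which build, is not given in the sources used here. Per the labels' protocols, RNA was purified on spin columns and checked on a Bioanalyzer. A platform annotation table gave 19572 features 1 symbol. For the 55 genes with several features, the one with the highest mean was used, which left 19505 genes; all 8 members measured had 1 feature. Groups and replicate numbers came from the sample titles.

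The 3 group means were fitted to all 9 arrays at once by limma 3.58.1 under R 4.3.3 (eBayes, 6 residual and 7.08 prior degrees of freedom), two-sided, with Benjamini-Hochberg adjustment over 19505 genes. The script was tested on simulated data. "Rose" and "fell" are used of called genes. Background was the 90th percentile of 5222 negative controls on each array, and a bound given as "at least" is the brighter group's mean minus the mean of that percentile over the dimmer group's arrays. The table gives no measure of precision for a single signal, so errors come from the 3 arrays of a group.

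The members and gene lists were chosen with earlier results of these data known. From each pathway list the rule named up to 4 called genes with the largest difference between lung and subcutaneous arrays. Met, Ereg, Pdgfa, Dusp1, Dusp22, Ier3, Errfi1, Rras, Rras2, the marker genes given with values, the genes named without values, and the uncalled genes Spred2 and Etv5 were named after their values were seen. Alternatives were other normalizations, a filter on dim genes, other variance models, array weights, only the groups compared, a replicate block, RIN and very long mRNAs as covariates, mean of features, and leaving out each array.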

Additional observations from a re-analysis of the deposited data

Results flagged for a closer look

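The differences of Dusp6 from the shared dish arrays had opposite signs, 2.58 under the skin and -0.55 in the lung, where lung and dish arrays overlapped. The direct test between the sites gave -3.13 (limma adjusted p = 0.000236, n = 3 per group). Every subcutaneous array was above every lung array. Spry1, under background on all arrays, was 1.06 above the dish mean under the skin and -0.14 from it in the lung, and the difference between the sites was -1.20 (limma adjusted p = 0.00585). The lung value of each gene against the dish did not pass its own test, so opposite movement from the dish was not shown.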

How the results depend on the processing

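Over 20 alternatives, the 24 differences of the 8 members gave 474 values, of which 450 kept their direction and side of the threshold, 12 lost a call, 2 gained one and 10 changed sign without being called before or after. Of 12 called differences, 6 were called in every alternative that could be run. Spry1 and Spred1 have no value under the filter on dim genes, which removes them. When arrays were left out, Dusp4 in lung against subcutaneous arrays ran from -0.40 to 0.14 and Spry2 in lung against dish from -0.11 to 0.39. The count of members called between lung and dish, 2, became 1 with very long mRNAs as a covariate and ranged from 0 to 2 when arrays were left out; the count between lung and subcutaneous arrays, 4, ranged from 2 to 4, and that between subcutaneous and dish arrays, 6, from 6 to 7. That last count was 4 with RIN as a covariate. With a replicate block the counts were 4, 2 and 6, as without it; deviations of the 9 same-numbered pairs correlated at -0.06 to 0.09, so the numbers were not read as pairing samples.

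The sign changes were, for lung against dish, Spry1 0.026 and Spry2 -0.17 after quantile normalization, Spry2 -0.19 and Spred1 -0.051 with equal upper quartiles, Spry2 -0.14 and Nras 0.29 with very long mRNAs as a covariate, and Spry2 below 0 without dish replicate 3 or lung replicate 1. For Dusp4 in lung against subcutaneous arrays they came without subcutaneous replicate 2 or lung replicate 3. Over all genes, very long mRNAs as a covariate reduced the calls of lung against subcutaneous to 939 and of lung against dish to 215, RIN reduced those of lung against dish to 856 and of subcutaneous against dish to 1280, and array weights raised those of lung against dish to 3039. The cause was not tested. Genes and list counts given without values were not recomputed under the alternatives. Signal over background limits Spry1, Spred1 and, outside the subcutaneous arrays, Spry4.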
